A study of Mus musculus with 6 samples.

Results

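The Sprr2 genes are a tandem family of small proline-rich protein genes on mouse chromosome 3. The 10 members described here are Sprr2a1, Sprr2b, Sprr2d, Sprr2e, Sprr2f, Sprr2g, Sprr2h, Sprr2i, Sprr2j-ps and Sprr2k, of 35275 genes in the deposited table. They were taken by name, after the table's Ensembl gene identifiers had been matched to mouse symbols. The rule uses no expression value, but the family was picked with earlier results of these data known. All libraries were made from back skin of CD1 IGS mouse embryos at E16.5, embryonic day of development, after the pregnant dams had been given doxycycline chow from E14.5. In K10-spastin embryos (genotype K10rtTA;TREspastin), the keratin 10 promoter drives the doxycycline-dependent activator rtTA in suprabasal keratinocytes, and rtTA switches on TRE-driven spastin, an enzyme that severs microtubules. The strains' alleles are listed as K10-rtTA, TRE-H2B-GFP and TRE-Spastin, and cells carrying the nuclear reporter H2B-GFP were sorted by flow cytometry from the separated epidermis. The control group is labelled only as control in the genotype field. Neither its transgenes nor the number of embryos behind a library is stated in the labels. Each group had 3 libraries, described as independent RNA samples.

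Suprabasal keratinocytes have left the proliferating basal layer and build the skin barrier as they move outwards. In their last stages they assemble the cornified envelope, a sheet of protein that transglutaminases cross-link under the cell membrane and that replaces it. SPRR proteins are short, cytosolic precursors of this sheet: a central run of proline-rich repeats lies between ends rich in glutamine and lysine, the residues that transglutaminases join, and the proteins act as bridges between larger precursors such as loricrin. Their genes lie in the epidermal differentiation complex, beside those of involucrin, loricrin, filaggrin and the late cornified envelope proteins. Several SPRR genes, including those of the SPRR2 family, are known to be induced in wounded or inflamed epithelium.

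The coding sequences of the family are short and close copies. In the GENCODE M21 annotation the predicted Sprr2h protein had 108 codons, of which 42.6% encoded proline. Sprr2b had 98 codons with 41.8% proline, Sprr2d had 85 with 41.2%, and Sprr2e, Sprr2f and Sprr2i each had 76 with 39.5%. Sprr2k was the shortest, with 68 codons and 30.9% proline. Sprr2g and Sprr2j-ps are transcribed pseudogenes in RefSeq, and their codons are not given here. The annotated coding length of Sprr2g, 232 bases, is not a whole number of codons, so its reading frame was not settled. The closest pair of coding sequences among the members was Sprr2e and Sprr2i, with 97.0% identity, followed by Sprr2d and Sprr2i with 95.2%. Sprr2k was the most distant, with 86.7% identity to its nearest copy, Sprr2d.

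Because copies this close can share sequencing fragments, the share of each annotated transcript that also occurs letter for letter in another gene was computed. For Sprr2g, Sprr2h and Sprr2k, 0% of all 50-base windows recurred in another gene's transcript. The share was 0.159% for Sprr2j-ps, 0.714% for Sprr2f, 4.27% for Sprr2d, 10.2% for Sprr2e, 12.5% for Sprr2i and 13.7% for Sprr2b. Over 100-base windows it fell to 1.16% or less for all of these. Sprr2a1 was different: 96.3% of its 50-base windows and 92.5% of its 100-base windows occurred elsewhere, mainly in Sprr2a2 and Sprr2a3, and its coding sequence was 100% identical to that of Sprr2a2. Values of Sprr2a1 can therefore not be assigned to that copy alone, whereas those of Sprr2g, Sprr2h and Sprr2k rest on sequence that no other annotated transcript holds at these lengths. How fragments that match several copies were counted is not stated.

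Most members also share a promoter layout, which is shown here as the regulatory sequence the copies have in common. RefSeq promoter windows (GRCm38.p6) were at hand for 8 of the 10 members, not for Sprr2g and Sprr2j-ps. The 250 bases before the start of Sprr2h lie at chr3:92385435-92385684 on the plus strand. Of the members, Sprr2h had the highest mean level and, on the scale of the test used below, the largest called change. Capitals mark, in order, an AP-1 motif, an octamer and a TATA motif.
Sprr2h promoter: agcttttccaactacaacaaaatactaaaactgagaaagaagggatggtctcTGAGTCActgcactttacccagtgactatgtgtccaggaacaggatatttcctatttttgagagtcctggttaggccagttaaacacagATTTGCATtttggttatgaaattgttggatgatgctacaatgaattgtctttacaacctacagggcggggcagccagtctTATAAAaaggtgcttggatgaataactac
The stretch from the AP-1 motif to the octamer was then cut from each of the 7 members that hold both, with both motifs in capitals and a few bases on either side. All are on the plus strand of GRCm38.p6: Sprr2b at chr3:92316504-92316610, Sprr2d at chr3:92338941-92339045, Sprr2e at chr3:92351944-92352048, Sprr2f at chr3:92364984-92365088, Sprr2h at chr3:92385481-92385589, Sprr2i at chr3:92407792-92407896, Sprr2k at chr3:92432380-92432486.
Sprr2b: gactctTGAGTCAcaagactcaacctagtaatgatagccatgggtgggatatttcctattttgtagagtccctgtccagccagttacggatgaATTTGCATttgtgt
Sprr2d: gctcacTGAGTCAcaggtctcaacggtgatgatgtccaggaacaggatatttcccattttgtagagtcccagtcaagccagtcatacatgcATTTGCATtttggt
Sprr2e: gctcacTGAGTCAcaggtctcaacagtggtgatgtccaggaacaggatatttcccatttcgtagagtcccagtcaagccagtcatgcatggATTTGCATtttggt
Sprr2f: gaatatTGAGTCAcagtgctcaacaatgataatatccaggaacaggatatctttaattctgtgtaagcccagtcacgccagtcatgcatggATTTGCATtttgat
Sprr2h: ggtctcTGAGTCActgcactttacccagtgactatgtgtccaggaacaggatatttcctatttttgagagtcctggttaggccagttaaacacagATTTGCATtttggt
Sprr2i: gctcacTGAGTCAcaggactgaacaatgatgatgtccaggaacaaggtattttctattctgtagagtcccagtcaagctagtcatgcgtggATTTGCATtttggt
Sprr2k: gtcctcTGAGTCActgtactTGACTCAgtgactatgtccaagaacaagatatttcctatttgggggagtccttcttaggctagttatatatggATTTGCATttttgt
These windows were chosen after the expression values had been seen.

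The AP-1 motif, TGANTCA, binds dimers of the JUN and FOS families, and it was found in 7 of the 8 promoters, between 198 and 193 bases before the start. Over all 32851 RefSeq promoter windows of the same length, 6.75% held it on either strand. The octamer ATTTGCAT, bound by POU factors, was in the same 7 promoters, between 112 and 108 bases before the start, against 1.60% of all promoters. TATAAA, the TATA motif, stood exactly 29 bases before the start in those 7, against 12.4% of all promoters holding it at any place. The ETS-type motif CAGGAA was in 6 of 8, all but Sprr2b and Sprr2k, against 25.7% of all promoters. TTCNNNGAA, the letters bound by STAT factors, and a spaced pair of GAAA repeats, the interferon-stimulated response element, were in 0 of the 8 windows, against 7.02% and 2.98% of all promoters. The spacing between AP-1 motif and octamer varied little, from 78 to 82 bases, and was 78 bases in Sprr2d, Sprr2e, Sprr2f and Sprr2i. Sprr2k held a further AP-1 match inside its window, 182 bases before the start. Sprr2a1 had only the ETS letters. Across 21 pairs of these 7 promoters, identity ran from 66.5% to 89.9%, with Sprr2d and Sprr2e the closest. Sprr2h was nearest to Sprr2k, with 81.9%, and Sprr2b stood apart, with at most 71.8% to any other. Members descend from copied DNA, so shared letters are not independent of one another, and a match describes letters and not a bound site.

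Expression was deposited as FPKM, fragments per kilobase of transcript and per M mapped fragments, which allows levels of genes of different length to be set side by side. The steps between low FPKM values put the depth at 16.0 to 22.5 M fragments per library, so that 3 fragments in a 1-kb transcript corresponded to 0.134 to 0.187 FPKM. Spast, the gene of the transgene product, was 21.2, 24.0 and 21.4 FPKM in controls and 1431, 639 and 213 FPKM in K10-spastin libraries 1, 2 and 3. Its rise was 4.65 ± 0.60 (SE) on the log2 scale, with adjusted p = 0.00865 in the limma test used throughout. The suprabasal keratins that define the labelled cell type were very high in all 6 libraries: Krt10 was between 13075 and 32513 FPKM and Krt1 between 11406 and 28595 FPKM. The test covered 11071 genes, those whose mean over the 6 libraries reached 1 FPKM. At an adjusted p under 0.05, 11.0% of them were called: 569 genes were higher in K10-spastin and 653 lower, and the median change of all tested genes was −0.09 on the log2(FPKM + 1) scale. Median-of-ratios scaling moved that median to 0.05. It moved the changes given below by unlike amounts: Sprr2i went from 5.355 to 5.425 and Krt10 from −0.81 to −0.66. All p-values set a difference between the groups against the spread between these libraries, with a variance that limma smooths over all tested genes.

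Sprr2 transcripts were scarce in control suprabasal cells and abundant in K10-spastin cells. The FPKM of the 10 members summed to 0.946, 26.6 and 23.6 in controls 1, 2 and 3, and to 845, 437 and 209 in K10-spastin libraries 1, 2 and 3. The means were 17.0 ± 14.0 and 497 ± 323 FPKM (SD, n = 3 each), and the lowest K10-spastin library stood 7.86-fold above the highest control. With Sprr2a2 and Sprr2a3 added, the sums were 4.14, 29.2 and 27.6 FPKM in controls and 913, 589 and 253 FPKM in K10-spastin. In RNA from sorted bulk cells, more cells that express the family and more transcript in each of them cannot be told apart.

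Of the 10 members, 9 passed the filter on low values and 6 rose in K10-spastin: Sprr2e, Sprr2f, Sprr2g, Sprr2h, Sprr2i and Sprr2k. Of all tested genes, 5.14% were called higher. No member was called lower, whereas 5.9% of all tested genes were. Sprr2e, Sprr2f, Sprr2i and Sprr2k passed the filter only through K10-spastin, since their control means were under 1 FPKM, so the count over these 4 is not support for a change. Of the 5 members with a control mean of at least 1 FPKM, Sprr2g and Sprr2h rose, and Sprr2b, Sprr2d and Sprr2j-ps did not pass the test. In 8 of the 10 members every K10-spastin library lay above every control, which held for 15.6% of all tested genes. These 8 include the 4 members that passed only through K10-spastin, whose separation the filter partly fixes. Of the 5 members with a control mean of at least 1 FPKM, 4 were separated, Sprr2b, Sprr2d, Sprr2g and Sprr2h, and Sprr2j-ps overlapped.

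**Figure D1:**
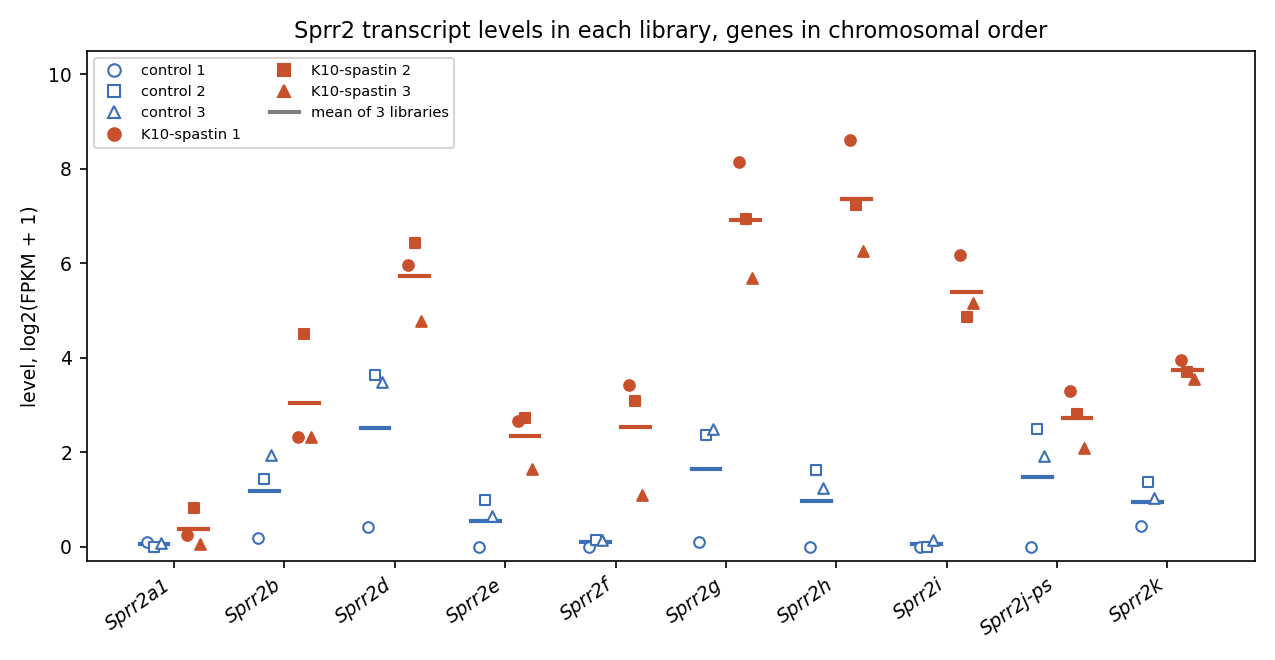
Level of each Sprr2 member as log2(FPKM + 1), in chromosomal order, with 1 point per library (open blue for the 3 controls, filled red for the 3 K10-spastin libraries) and a line at the mean of each group. All members except Sprr2a1 and Sprr2j-ps show the K10-spastin points above the control points, and control 1 is the lowest control in 9 of 10 members.

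Sprr2h had the highest level of any member in all 3 K10-spastin libraries. It was 0, 2.08 and 1.37 FPKM in controls 1, 2 and 3, and 389, 149 and 75.6 FPKM in K10-spastin. The groups were far apart. By the estimated depth and the GENCODE M21 transcript length, the control values correspond to 0, 25 and 17 fragments. The K10-spastin values correspond to 5078, 2193 and 988. All fragment numbers of members given here are inferred in this way and were not read from counts. The means were 1.15 ± 1.06 and 204 ± 164 FPKM (SD, n = 3 each), the change was 6.41 ± 0.63 (SE) on the log2(FPKM + 1) scale, and limma's adjusted p was 0.00438. Sprr2h was called under all 18 alternative settings, with adjusted p between 5.12e-04 and 0.0259.

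Sprr2g, the pseudogene next to Sprr2h in the cluster, was the second most abundant member in every K10-spastin library. Its control values were 0.0683, 4.13 and 4.64 FPKM, from 1, 43 and 50 fragments. In K10-spastin it reached 281, 121 and 50.8 FPKM, from 3182, 1541 and 574 fragments. The order of the 3 K10-spastin libraries was thus that of Sprr2h and of Spast. The change was 5.27 ± 0.79 (SE) on the log2(FPKM + 1) scale with adjusted p = 0.0125 (limma). A test against a change of at least 2-fold gave an adjusted p of 0.0847 for this gene, the single alternative of 18 in which it was not called.

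Sprr2i, on the other side of Sprr2h, was close to absent from controls. It was listed at 0 in controls 1 and 2 and at 0.0979 FPKM in control 3, a value that corresponds to 1 fragment. In K10-spastin it was 71.7, 28.0 and 34.7 FPKM, from 769, 338 and 372 fragments. Every K10-spastin library lay above every control by a wide margin, and no ratio is given because the control level rests on 1 fragment. The change was 5.36 ± 0.34 (SE) on the log2(FPKM + 1) scale, a value that depends on the added 1, and the adjusted p was 0.0014 (limma). With 0.1 added instead, the change of Sprr2i was 8.36, larger than the 7.90 of Sprr2h. All 18 alternatives called it.

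Sprr2k, at the far end of the Sprr2 series, varied least of the 10 among the K10-spastin libraries. Control values were 0.349, 1.57 and 1.04 FPKM and K10-spastin values were 14.48, 12.03 and 10.67 FPKM. The highest K10-spastin library was only 1.36 times the lowest, against 5.14 times for Sprr2h and 5.54 times for Sprr2g. Sprr2k rose by 2.79 ± 0.27 (SE) on the log2(FPKM + 1) scale, with adjusted p = 0.00435 (limma), and was called under all 18 alternatives. Its level was nevertheless low: its K10-spastin mean was 12.4 FPKM, against 204 for Sprr2h.

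Sprr2f and Sprr2e were called at low levels and less firmly. Sprr2f was 0, 0.103 and 0.0992 FPKM in controls, from 0, 1 and 1 fragments, and 9.66, 7.47 and 1.14 FPKM in K10-spastin, from 102, 89 and 12 fragments. The third K10-spastin library was therefore far below the other two, though still above every control. Its change was 2.44 ± 0.56 (SE) on the log2(FPKM + 1) scale with adjusted p = 0.0378 (limma). Sprr2e was 0, 0.966 and 0.560 FPKM in controls and 5.35, 5.61 and 2.14 FPKM in K10-spastin, and the groups did not overlap. Its change was 1.81 ± 0.38 (SE) on the same scale with adjusted p = 0.0287 (limma). Leaving out any 1 control, K10-spastin 1 or K10-spastin 2 ended both calls: the adjusted p of Sprr2f then lay between 0.0689 and 0.12, and that of Sprr2e between 0.0569 and 0.0982. Both calls were also lost without a filter, with adjusted p of 0.0785 for Sprr2f and 0.0637 for Sprr2e.

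**Figure D2:**
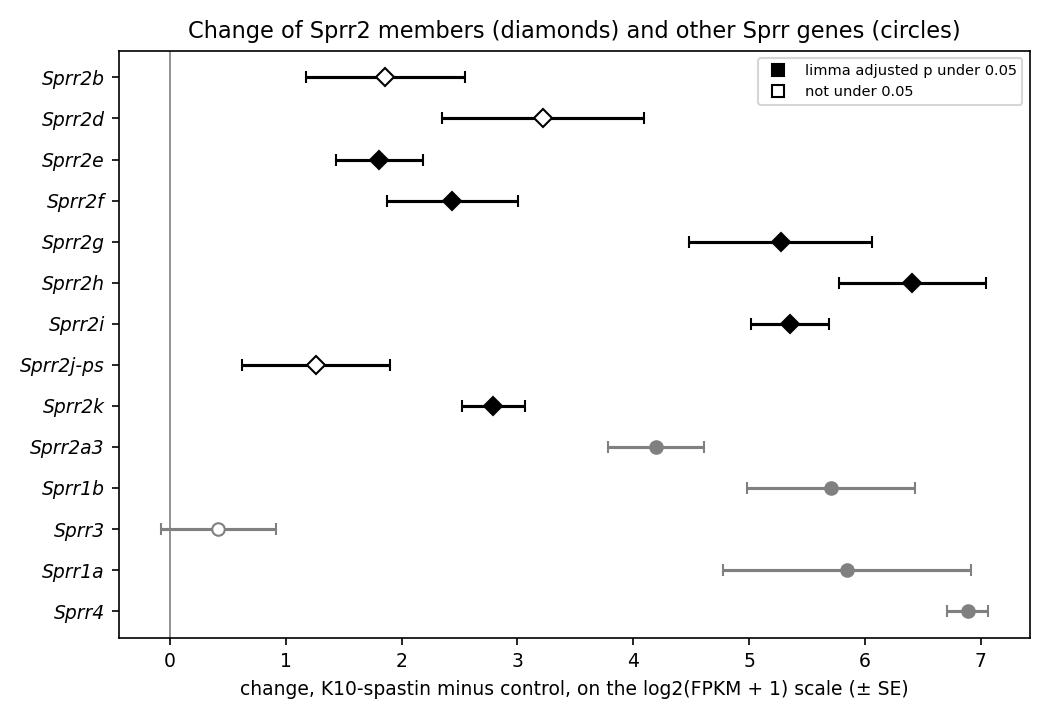
Change of each tested Sprr2 member (black diamonds) and of 5 other Sprr genes (grey circles), K10-spastin minus control, on the log2(FPKM + 1) scale, with bars of ± 1 SE from limma and n = 3 libraries per group. Filled symbols have an adjusted p under 0.05: Sprr2h, at 6.41, is the farthest right of the members, and Sprr2b, Sprr2d and Sprr2j-ps are open.

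Sprr2d was the most abundant member of controls 2 and 3 and did not pass the test. It was 0.326, 11.4 and 10.1 FPKM in controls, and 61.5, 85.5 and 26.3 FPKM in K10-spastin. The groups did not overlap, and control 1 lay far below the other controls. The difference was 3.22 ± 0.87 (SE) on the log2(FPKM + 1) scale, with adjusted p = 0.0562 (limma), and 0 of 18 alternatives called it, the lowest adjusted p being 0.0521. Without control 1 the difference was 2.17 with adjusted p = 0.0592.

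Sprr2b, Sprr2j-ps and Sprr2a1 also did not pass the test or were not tested. Sprr2b was 0.127, 1.70 and 2.85 FPKM in controls and 3.96, 21.7 and 3.96 FPKM in K10-spastin. K10-spastin 2 stood above the other two libraries of its group. The difference was 1.86 ± 0.69 (SE) on the log2(FPKM + 1) scale with adjusted p = 0.115 (limma), and 1.13 without K10-spastin 2. Sprr2j-ps was 0, 4.64 and 2.78 FPKM in controls and 8.823, 5.999 and 3.254 FPKM in K10-spastin. Its groups overlapped, and the difference of 1.26 ± 0.64 (SE) on the same scale had adjusted p = 0.222 (limma). Sprr2a1 stayed below the filter, with 0.0753, 0 and 0.0512 FPKM in controls and 0.179, 0.765 and 0.0325 FPKM in K10-spastin. Without a filter its difference was 0.31 ± 0.19 (SE) with adjusted p = 0.386 (limma), and nearly all of its sequence is shared with Sprr2a2 and Sprr2a3.

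Along with the level, the makeup of the Sprr2 transcript pool differed between the groups. Sprr2g, Sprr2h and Sprr2i, which lie side by side, made up 7.22%, 23.4% and 25.9% of the summed FPKM in controls 1, 2 and 3. In K10-spastin they made up 87.7%, 68.2% and 77.2%. Sprr2h alone went from 0%, 7.82% and 5.79% to 46.0%, 34.1% and 36.2%. Sprr2d went the other way, from 34.5%, 42.8% and 42.8% of the pool in controls to 7.28%, 19.6% and 12.6% in K10-spastin, although its own FPKM was higher there. Neither share overlapped between the groups. The shares were chosen for display after the values had been seen and have no test, and the pool of control 1 was only 0.946 FPKM, with Sprr2k as its largest part.

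**Figure D3:**
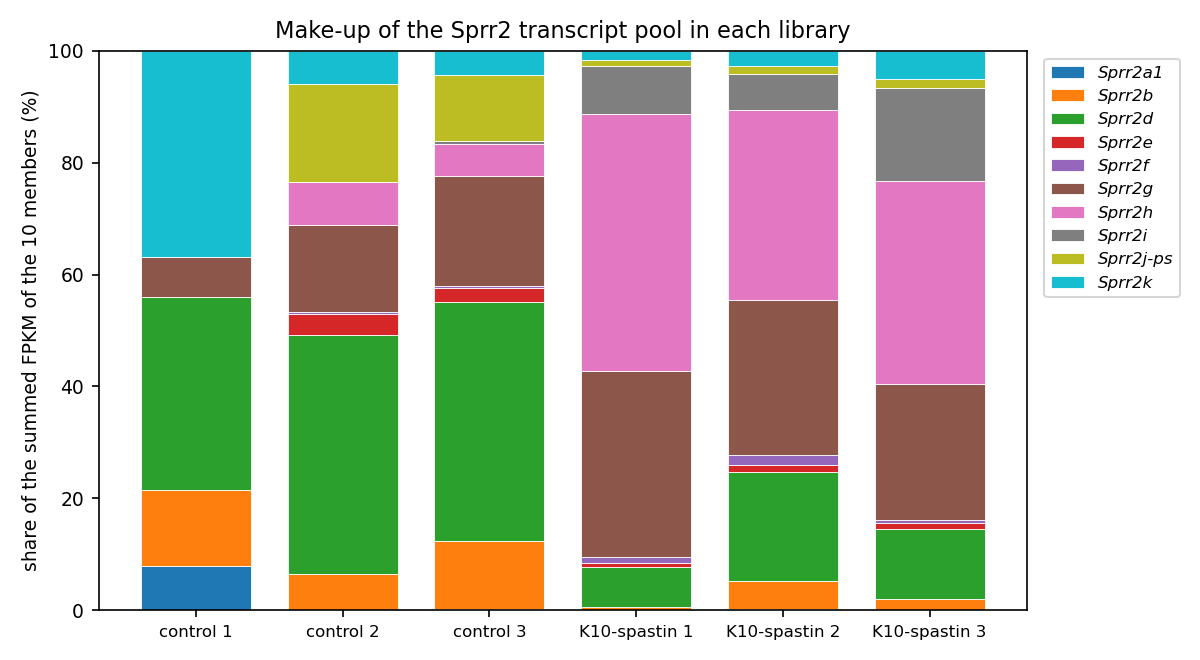
Share of each Sprr2 member in the summed FPKM of the 10 members, in percent, as 1 stacked bar per library. Sprr2g, Sprr2h and Sprr2i together take 68.2% to 87.7% of each K10-spastin bar and 7.22% to 25.9% of each control bar.

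Which of K10-spastin libraries 1 and 2 had the higher FPKM differed between members, and it split by place along the chromosome. Library 3 was the lowest of its group in 9 of the 10 members. In RefSeq the members run Sprr2a1, Sprr2b, Sprr2d, Sprr2e, Sprr2f, Sprr2g, Sprr2h, Sprr2i, Sprr2j-ps and Sprr2k, with Sprr1b, Sprr3, Sprr1a and Sprr4 after them. By unscaled FPKM, the 4 members from Sprr2a1 to Sprr2e were highest in K10-spastin 2, and the 6 from Sprr2f to Sprr2k were highest in K10-spastin 1. The ratio of library 1 to library 2 was 0.234 for Sprr2a1, 0.182 for Sprr2b, 0.719 for Sprr2d and 0.953 for Sprr2e. Further along it was 1.29 for Sprr2f, 2.32 for Sprr2g, 2.61 for Sprr2h and 2.56 for Sprr2i, and then 1.47 for Sprr2j-ps and 1.20 for Sprr2k. Sprr2a2 and Sprr2a3, which lie between Sprr2a1 and Sprr2b, had ratios of 0.347 and 0.444. Beyond Sprr2k, Sprr3 had a ratio of 0.490, while Sprr1b and Sprr1a had 2.99 and 2.84. The place of the split depends on scaling. The median-of-ratios factors were 0.811 for K10-spastin 1 and 1.06 for K10-spastin 2. Dividing by them raises all these ratios alike, and Sprr2e then lies above 1.

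Over the 11032 tested genes above 0 FPKM in every K10-spastin library, the median of this ratio was 0.788, with 5th and 95th percentiles of 0.312 and 1.91. Among the 569 genes called higher it was 1.21, and 70.3% of them had a ratio above 1. Sprr2g, Sprr2h and Sprr2i therefore lay above the 95th percentile of the tested genes, and Sprr2b below the 5th. Sprr2a1 also had a ratio below the 5th percentile. It was not among the tested genes, and its values cannot be assigned to that copy alone. This split along the chromosome was noticed in the values and is a description of 2 libraries. Library 2 also had the highest sum of 6 melanocyte markers, 23.8 FPKM, and the highest Krt5 of its group, 2670 FPKM against 1072 and 1608. Their part in the split was not tested.

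**Figure D4:**
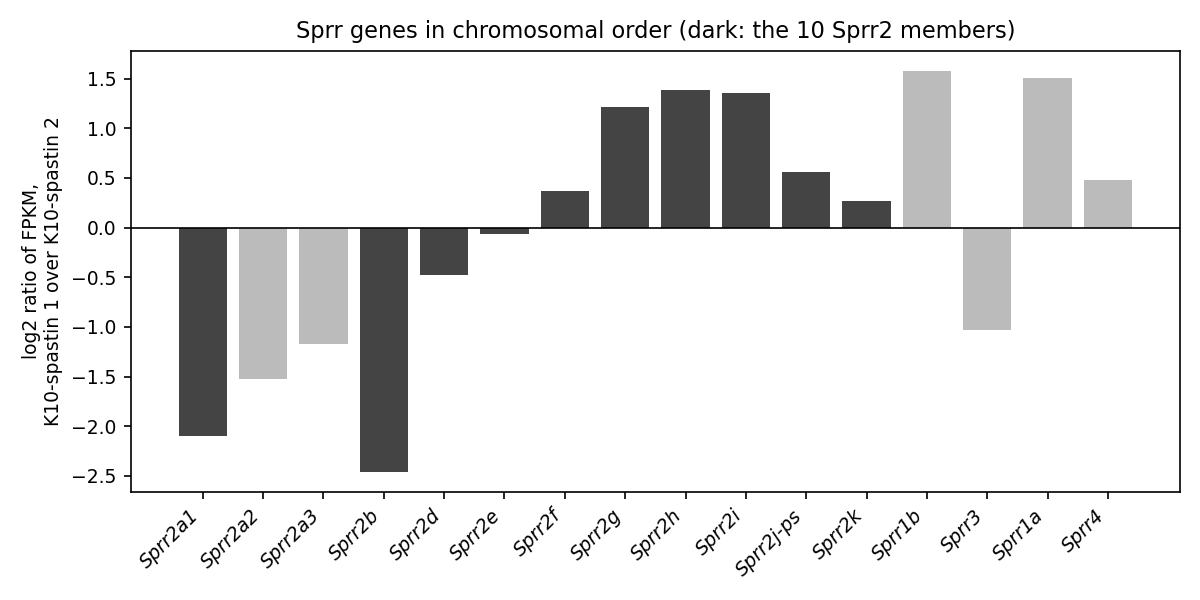
Bars give the log2 ratio of unscaled FPKM in K10-spastin 1 over K10-spastin 2 for Sprr genes in RefSeq chromosomal order, dark for the 10 members and grey for other Sprr genes. The 4 members from Sprr2a1 to Sprr2e lie below 0, a ratio of 1, and the 6 from Sprr2f to Sprr2k above it.

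Spread within the control group came mostly from control 1. It was the lowest control in 9 of the 10 members, and was listed at 0 in 5, Sprr2e, Sprr2f, Sprr2h, Sprr2i and Sprr2j-ps. It was also the deepest library, with 22.5 M fragments. The envelope genes Sprr1a and Lor and the fibroblast gene Col1a1 also had their lowest control value in this library, with 6.84, 1205 and 0.724 FPKM. Among K10-spastin libraries, library 3 was the lowest in 9 of 10 members, and it also had the lowest Spast. In 5 members, Sprr2f, Sprr2g, Sprr2h, Sprr2j-ps and Sprr2k, the order of the 3 libraries was the order of their Spast levels. With 3 libraries this is a description only.

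The other Sprr genes differed from one another in the same libraries. Sprr2a3, an Sprr2 gene outside the 10 members, was 3.19, 2.65 and 3.98 FPKM in controls and 67.2, 151 and 44.0 FPKM in K10-spastin. It rose by 4.19 ± 0.42 (SE) on the log2(FPKM + 1) scale with adjusted p = 0.00438 (limma), although 61.1% of its 50-base windows occur in other genes. Its neighbour Sprr2a2 was listed at 0 in all controls and reached at most 0.935 FPKM. Sprr1b rose from 11.8, 62.8 and 55.5 FPKM to 4347, 1456 and 1041 FPKM, by 5.71 ± 0.73 with adjusted p = 0.0082 (limma). Sprr1a was 6.84, 140 and 124 FPKM in controls and 5803, 2041 and 2221 FPKM in K10-spastin, with adjusted p = 0.0201 (limma). That call was lost without control 3 (0.0585), without a filter (0.0503) and in the test against a 2-fold change (0.176). Sprr4 was listed at 0 in all 3 controls and was 141, 101 and 114 FPKM in K10-spastin, with adjusted p = 1.08e-05 (limma). It passed the filter only through K10-spastin, so the filter partly fixes its difference. Sprr3, better known from oral and oesophageal epithelium, was between 0.0728 and 3.11 FPKM in all 6 libraries, with a difference of 0.42 ± 0.50 and adjusted p = 0.611 (limma). Per kilobase the family remained minor next to the Sprr1 pair: the summed 10 members averaged 497 FPKM in K10-spastin, against 3355 for Sprr1a and 2281 for Sprr1b.

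Other precursors of the cornified envelope were called in part. Of 41 listed precursors, 35 were tested, 9 rose and 0 fell, with a median change of 2.80 on the log2(FPKM + 1) scale. Of all tested genes, 5.14% were called higher. In 23 of the 35 every K10-spastin library lay above every control and in 2 every one lay below, against 15.6% and 24.8% of all tested genes. Some precursors, among them Rptn and Lce3d, had control means under 1 FPKM and passed the filter only through K10-spastin. The filter therefore partly fixes these counts and the median. Those that rose were Rptn, Lce1f, Lce3c, Lce3d, Lce3e, Cnfn, Cdsn, Ivl and Crct1. Rptn, which encodes the filaggrin-type protein repetin, was 0.204, 0.497 and 0.758 FPKM in controls and 51.8, 41.0 and 41.7 FPKM in K10-spastin, a rise of 4.96 ± 0.21 (SE) with adjusted p = 1.23e-04 (limma). Lce3d, a late cornified envelope gene, was listed at 0 in controls and was 6.69, 20.3 and 26.4 FPKM in K10-spastin, with adjusted p = 0.00546 (limma). Ivl, the gene of the scaffold protein involucrin, was 18.4, 63.3 and 35.1 FPKM in controls and 405, 192 and 113 FPKM in K10-spastin, and rose by 2.54 ± 0.55 with adjusted p = 0.0321 (limma). That call was lost when any library but K10-spastin 3 was left out, with adjusted p between 0.0534 and 0.107, and Ivl was picked after its values had been seen. Loricrin, the most abundant envelope protein, was not called: Lor was 1205, 5188 and 4608 FPKM in controls and 2772, 3007 and 14562 FPKM in K10-spastin, with overlapping groups and adjusted p = 0.583 (limma). Krtdap, a keratinocyte differentiation-associated gene, differed by 0.21 ± 0.23 with adjusted p = 0.564 (limma). The count of precursors called higher ranged from 4 without control 3 to 20 without K10-spastin 1.

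Among genes for cross-linking and processing the envelope, 8 of 10 listed were tested, 5 rose and 0 fell, with a median change of 1.33. The shares of all tested genes called were 5.14% higher and 5.9% lower. Tgm1, the membrane-bound transglutaminase that joins SPRR proteins into the envelope, was 53.6, 80.5 and 71.7 FPKM in controls and 403, 255 and 183 FPKM in K10-spastin. It rose by 1.96 ± 0.29 (SE) with adjusted p = 0.0126 (limma), which became 0.0585 without control 3. Tgm3, which pre-assembles precursors in the cytosol, differed by 0.14 ± 0.19 with adjusted p = 0.654 (limma), and its groups overlapped. Ctsl, the lysosomal protease cathepsin L, went from 7.26, 11.3 and 11.9 FPKM to 100, 65.6 and 113 FPKM, a rise of 3.06 ± 0.26 with adjusted p = 0.00384 (limma). Asprv1, the protease that processes profilaggrin, rose by 2.34 ± 0.27 (adjusted p = 0.0060, limma), and Ctsd, cathepsin D, by 1.62 ± 0.21 (adjusted p = 0.00867, limma). Cst6, an inhibitor of cathepsins, was the fifth of these genes called higher. Tgm1 and Tgm3 were picked after their values had been seen.

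Transcription factors described as regulators of Sprr2 genes or of late differentiation moved in both directions. All 29 listed were tested, 4 rose and 3 fell, and their median change was −0.14, close to that of all genes. For all tested genes the shares called higher and lower were 5.14% and 5.9%. Ehf, an epithelial ETS factor, was 1.34, 3.70 and 3.35 FPKM in controls and 23.3, 21.6 and 27.7 FPKM in K10-spastin, a rise of 2.79 ± 0.29 (SE) with adjusted p = 0.0048 (limma). Grhl3, Cebpb and Hopx also rose. The 3 that fell were all FOS family members, partners of JUN in AP-1. Fosb was 472, 639 and 893 FPKM in controls and 38.2, 37.5 and 107 FPKM in K10-spastin, a change of −3.57 ± 0.43 with adjusted p = 0.00712 (limma). Fos changed by −1.42 ± 0.24 (adjusted p = 0.0161, limma), a call lost without any 1 of the controls, with adjusted p up to 0.0744, and Fosl2 was the third. Jun did not pass the test, with a difference of −1.13 ± 0.30 and adjusted p = 0.0558 (limma). Its groups did not overlap, and 5 of 18 alternatives called it lower. Pou2f3, a POU factor of suprabasal keratinocytes of the kind that binds octamers, was 120, 102 and 101 FPKM in controls and 44.2, 61.2 and 82.0 FPKM in K10-spastin. Its difference of −0.82 ± 0.22 did not pass the test (adjusted p = 0.0571, limma), though 4 of 18 alternatives called it lower. Pou2f3 was picked after its value had been seen. The number of listed factors called higher was 2 under 7 of the alternative settings that keep all libraries and 1 without control 3.

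The 24 listed cytokines and receptors include known inducers of Sprr2 genes in inflamed epithelium. Of these, 16 were tested, 6 rose and 2 fell, with a median change of 0.50. Calls over all tested genes were 5.14% higher and 5.9% lower. Tslp, an epithelial cytokine that starts type 2 inflammation, was 0.196, 0.331 and 0.373 FPKM in controls and 564, 301 and 51.0 FPKM in K10-spastin. Its change was 7.32 ± 0.78 (SE) on the log2(FPKM + 1) scale with adjusted p = 0.00514 (limma). Il33, a nuclear alarmin, was 0, 1.29 and 1.38 FPKM in controls and 253, 62.4 and 16.7 FPKM in K10-spastin, with adjusted p = 0.0171 (limma). Tslp and Il33 had control means under 1 FPKM and passed the filter only through K10-spastin. The filter therefore partly fixes the count called higher. Leaving out any 1 control ended the call for Il33, with adjusted p between 0.0561 and 0.0631. Among the K10-spastin libraries both had the order of Sprr2h, highest in library 1 and lowest in library 3; among controls they did not. Il1a and the receptor genes Il22ra1, Il1rl2 and Tnfrsf1a were also called higher, and Lifr and Ifngr1 lower. Transcripts of Il13, Il22 and Ifng, made chiefly by lymphocytes, were listed at 0 in all 6 libraries. Without any 1 of the controls a single gene of this list was called higher.

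Markers of skin layers and of other cells were read in the same libraries, where 5.14% of all tested genes were called higher and 5.9% lower. Of 8 tested spinous markers 0 rose and 1, Krt10, fell, with −0.81 ± 0.20 (SE) on the log2 scale and adjusted p = 0.0438 (limma). Under median-of-ratios scaling Krt10 had −0.66 and adjusted p = 0.0883, and under quantile normalization −0.07 and 0.783. Leaving out any library but K10-spastin 1 also ended that call, with adjusted p up to 0.144. Of 7 tested basal markers, Krt15 fell, from 2095, 1237 and 1835 FPKM to 70.0, 449 and 261 FPKM (adjusted p = 0.0269, limma, and up to 0.0988 without 1 control). Krt1, with −0.69 ± 0.22 and adjusted p = 0.0838, Trp63, with −0.55 ± 0.14 and 0.0514, Krt5, with −0.78 ± 0.38 and 0.202, and Krt14, with 0.07 ± 0.53 and 0.939, did not pass the limma test. Periderm and simple-epithelial markers, 9 genes, summed to 254 to 864 FPKM in controls and 1125 to 6023 FPKM in K10-spastin. As a list they did not rise: of 8 tested, 1 rose and 1 fell, with a median change of −0.67. Krt6a, also a stress keratin of damaged epidermis, gave most of the higher sum: it was 1.46, 9.22 and 13.7 FPKM in controls and 4757, 1226 and 621 FPKM in K10-spastin. Krt13, a mucosal keratin in the same list, went the other way, from 6.91, 12.7 and 26.1 FPKM to 0.583, 0.129 and 3.79 FPKM (adjusted p = 0.0341, limma, and between 0.0525 and 0.115 when any library but K10-spastin 3 was left out). The 6 fibroblast markers summed to 6.44 to 42.3 FPKM in controls and 0.791 to 3.03 FPKM in K10-spastin, and 1 of 4 tested, Dcn, was called lower. Endothelial markers summed to at most 0.361 FPKM in any library. Immune markers summed to at most 2.59 FPKM, with Cd3e and Cd207 at 0 in all. Markers of gut and uterine epithelium, the other tissues known for Sprr2 expression, summed to at most 3.44 FPKM, with Cdx2, Cdh17 and Olfm4 at 0. What part the periderm, stress and fibroblast markers had in the Sprr2 differences was not tested.

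The genes with the pattern most like the family were sought over the 6 libraries, by Pearson's correlation of log2(FPKM + 1) with the mean of the 9 tested members. The highest were Fzd5, a WNT receptor gene, with r = 0.996, Mboat1, a membrane-bound acyltransferase, with 0.995, Tnfrsf1a, the main TNF receptor, with 0.994, Ggn with 0.993 and F2rl1, which encodes the protease-activated receptor PAR2, with 0.991. The profile they match was 0.12, 1.56 and 1.45 in controls and 4.95, 4.70 and 3.62 in K10-spastin, in log2 units, so the correlation rests on the gap between the groups and on the low values of control 1 and K10-spastin 3. Their own changes were smaller: Fzd5 was 2.21, 3.43 and 3.33 FPKM in controls and 8.29, 7.47 and 5.30 FPKM in K10-spastin. Mboat1 was 8.83, 11.7 and 11.6 FPKM in controls and 34.3, 29.4 and 23.0 FPKM in K10-spastin.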

How the data were processed

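RNA was measured in 3 control and 3 K10-spastin libraries of sorted suprabasal epidermal cells, grouped by the genotype label. The authors deposited 1 FPKM value per gene and library; CASAVA and TopHat2 are named, without versions, in the submitters' processing notes. The build, annotation, counter, strand setting and treatment of fragments with several matches are not stated. Symbols were found for 34490 of 35275 gene identifiers. Genes averaging 1 FPKM or more were tested by limma 3.58.1 in R 4.3.3 on log2(FPKM + 1), with variance trend, two-sided, with Benjamini-Hochberg adjustment over all 11071 genes and a threshold of 0.05. A change on this scale understates that of low genes. The fit was tested on simulated data. FPKM of 14953 single-transcript genes were whole multiples of a step (within 0.05 of a fragment, up to 20 fragments) for 90.8% to 91.8% of low values, which gave the depth; the fragment numbers of members follow from GENCODE M21 lengths. Copies were compared over exact 50- and 100-base windows of M21 transcripts, and promoters over 250 bases before RefSeq starts, with pairs kept at 200 or more aligned bases. Python 3.11.15, numpy 2.4.6, pandas 2.3.3, Biopython 1.88 and matplotlib 3.10.9 were used. Of each gene list, 2 genes were named by smallest p and 2 by highest mean, along with all members, the 4 other Sprr genes outside Sprr2 and the 5 genes most like the family; 6 further genes (Tgm1, Tgm3, Ivl, Pou2f3, Krt6a, Krt13) were picked after their values were seen. Members and lists were chosen with earlier results of these data known. Alternatives were other pseudocounts (0.1, 0.5), no filter or a stricter filter (5 FPKM), quantile and median-of-ratios scaling, other limma variance models, array weights, a replicate block, a test against a 2-fold change, and leaving out libraries.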

Additional observations from a re-analysis of the deposited data

How the results depend on the processing

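Of 46 named genes, 42 kept their direction under every alternative tried. Over 821 comparisons of a gene with an alternative, 690 gave the same call, 100 lost it, 19 gained it and 12 changed sign. The sign changes were all of genes not called under any of these settings: Krtdap (−0.1456 under quantile normalization, −0.0395 without control 1 and K10-spastin 1 together), Lor (−0.0867 to 1.11 without 1 library), Tgm3 (−0.0664 with array weights, −0.0508 to 0.29 without 1 library, −0.0213 without both libraries numbered 1) and Krt14 (−0.0174 under quantile normalization, −0.629 with array weights, −0.427 to 0.659 without 1 library, −0.424 without both libraries numbered 1). The causes were not tested.

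The number of Sprr2 members called higher was 6, was 3 in the test against a 2-fold change, 4 without a filter, 4 with the filter at 5 FPKM, which leaves Sprr2e and Sprr2f untested, 4 to 6 when 1 library was left out, and no member was called lower under any setting. Summed FPKM of the members averaged 12.3 to 25.1 in controls and 323 to 641 in K10-spastin when 1 library was left out. Genes called in all, higher and lower numbered 667, 319 and 348 without a filter, 3306, 1535 and 1771 with array weights, 44, 39 and 5 against a 2-fold change, and 145 to 1387, 114 to 687 and 31 to 707 when 1 library was left out; 414 were lower with the filter at 5 FPKM. Higher and lower calls were 789 and 645 under median-of-ratios scaling and 607 and 888 under quantile normalization.

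The labels do not say whether numbers 1 to 3 pair the libraries. Deviations of same-numbered libraries from their group means correlated at −0.128, −0.378 and −0.0471. With 3 libraries per group these values cannot settle whether libraries were paired. With the replicate block 492 genes were called, 274 higher and 218 lower; 4 Sprr2 members were higher, as Sprr2e and Sprr2f each had adjusted p = 0.05101, and 15 envelope precursors, 2 listed factors and 3 listed cytokines or receptors were higher, and 1 of the latter lower.

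Envelope precursors called higher were 4 without a filter, 26 with array weights, 3 against a 2-fold change, 14 without both libraries numbered 1 and 4 to 20 without 1 library; 1 was lower under quantile normalization and 2 with array weights. Cross-linking genes called higher were 1 against a 2-fold change and 3 to 5 without 1 library. Listed factors called higher were 2 at pseudocount 0.1, without a filter, at 5 FPKM, under either scaling and without a variance trend, 1 against a 2-fold change and 1 to 5 without 1 library; lower were 8 under quantile normalization, 12 with array weights, 0 against a 2-fold change, 8 without both libraries numbered 1 and 1 to 4 without 1 library. Listed cytokines and receptors called higher were 3 without a filter, 1 against a 2-fold change and 1 to 7 without 1 library; lower were 1 without a filter, at 5 FPKM or without both libraries numbered 1, 0 against a 2-fold change and 0 to 2 without 1 library. At these depths control values of Sprr2f and Sprr2i, with at most 1 fragment per library, and those of control 1, with at most 5 fragments in the 7 members with fragment numbers, are near the limit of detection.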
